A study of Mus musculus with 19 samples.

Results

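Bcl11b and GATA3 were mapped by chromatin immunoprecipitation and sequencing (ChIP-seq) in mouse T helper 2 (Th2) cells, and the regions described here are promoter peaks bound by both. A region was taken when a deposited Bcl11b peak overlapped, by at least 1 bp, a GATA3 peak, when neither peak overlapped a peak of the input library, and when the middle of the Bcl11b peak lay at most 1000 bp from an annotated transcription start. This rule gave 1150 regions out of 17459 deposited Bcl11b peaks, or 7.54% of the 15262 Bcl11b peaks clear of the input. They lie at 1133 genes, of which 17 carry 2 such peaks. They overlap 1246 of the 27199 input-clear GATA3 peaks (4.58%). The regions were selected on the peak positions and calls of the 3 ChIP libraries, so peak measures are given as descriptions and only the RNA comparisons carry tests.

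Bcl11b is a zinc finger transcription factor that T cells need for their commitment in the thymus and that mature T cells keep expressing. GATA3 is the zinc finger factor that drives Th2 differentiation, binds the letters GATA in DNA, and acts at the locus that holds Il4, Il5 and Il13. Th2 cells secrete those cytokines in allergy and in the defence against worms.

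The RNA-seq data comprise 2 experiments of 8 libraries each, with 2 libraries in each of 4 groups. In the Bcl11b experiment, naive CD4 T cells of Bcl11b fl/fl-CreERT2 mice were grown in Th2 conditions. Early KO cells had 4-hydroxytamoxifen (4-OHT), which activates the CreERT2 recombinase, during the 4 days of culture, and early WT cells had none. Late KO cells were first primed for 4 days without the drug, rested 1 day in medium with IL-2, and then grown 4 more days with 4-OHT, and late WT cells went the same way without it. The WT cells therefore carry the same floxed alleles and CreERT2, and the drug and the deletion cannot be told apart. The Gata3 experiment has early and late Gata3 KO and Gata3 WT libraries, and the sources used here do not state their alleles or culture. The ChIP libraries, 1 for Bcl11b (a Bethyl antibody), 1 for GATA3 (a BD antibody) and 1 input, are from late WT Th2 cells, without replicates. No source says whether the 2 RNA libraries of a group came from separate mice, so the p-values measure the spread between these libraries, which may be technical.

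Several libraries stood apart from what their labels describe. Early and late Gata3 WT libraries of the same number were closer to each other (chi-square per degree of freedom 4.26 and 2.52 over the genes) than the 2 libraries of 1 group were (12.8 for early WT and 13.5 for late WT). Of the 1006 genes tested there, 1 (0.0994%) differed over 2-fold in mean level between late and early Gata3 WT, against 378 of 1008 (37.5%) between late and early Bcl11b WT. A difference between the early and late Gata3 KO effects therefore rests on the KO libraries. The sources do not say whether these WT libraries share a culture, and the fit counted them as separate. If they do, calls at the 2 Gata3 labels share a control and are not independent, and the Gata3 p-values may be too small. The 2 early Bcl11b WT libraries held 3.74 and 4.84 reads per kb over odorant and vomeronasal receptor transcripts, which T cells are not known to use, against 0.270 to 0.505 in the other 6 Bcl11b libraries. Gene reads ran from 4687559 to 14577958 per library. The T cell gene Cd3e stood at 75.1 to 386 RPKM in all 16 libraries. The Th2 genes checked beside it varied more. In the 2 early Bcl11b WT libraries Il13 had 1.24 and 0.837 RPKM, Il5 0.0542 and 1.06, and Il4 13.3 and 7.70. Il1rl1 had 0.156 and 0.782 RPKM there, Ccr8 2.30 and 1.56, and Gata3 33.2 and 30.2. In the early Gata3 WT libraries Il13 had 101 and 103 RPKM, Ccr8 336 and 294, and Gata3 208 and 234. The part of these low levels in the early Bcl11b comparison was not tested. RNA levels are given as CPM, reads scaled to the library size. Bcl11b mRNA, itself of a gene with a shared promoter peak, had 66.5 and 54.1 CPM in early Bcl11b KO libraries, against 126 and 128 CPM in WT libraries. It fell (log2 fold change -1.08 ± 0.28, adjusted p = 0.0232, edgeR; ± is the standard error throughout), but the adjusted p was 0.0821 without early KO library 2 and 0.0520 without early WT library 1, and the difference turned to 0.047 with limma on log2(RPKM + 1). Late KO libraries had 75.6 and 137 CPM of Bcl11b, against 140 and 181 CPM in late WT libraries (adjusted p = 0.421). These are reads over the whole transcript, so they cannot show the loss of a part of the gene. Gata3 mRNA fell in both Gata3 KO groups. It had 425 and 419 CPM in early KO libraries, against 1178 and 1279.5 CPM in WT libraries (log2 fold change -1.54 ± 0.11, adjusted p = 5.80e-06). It had 1090.4 and 954 CPM in late KO libraries, against 1382 and 1327 CPM in WT libraries (-0.41 ± 0.11, adjusted p = 0.0361).

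Upstream sequence is shown for 7 of these promoters, chosen for the highest enrichments, for calls in all 4 RNA comparisons, or (Il4 and Samsn1, after their values were seen) for both summits lying in the window. Each line is the 250 bases before the RefSeq transcription start (GRCm38.p6, the mm10 build), 5′ to 3′ on the gene's strand, with GATA on either strand in capitals (TATC is GATA read on the other strand). Il4 (chr11:53617339-53617588, minus strand), Cd274 (chr19:29367188-29367437, plus strand), Havcr2 (chr11:46454681-46454930, plus strand) and Samsn1 (chr16:75909267-75909516, minus strand) have both summits inside the window shown. Il13 (chr11:53634703-53634952, minus strand) has the summit of 1 Bcl11b peak in it. Hist1h1e (chr13:23622559-23622808, minus strand) and 1700021F05Rik (chr10:43541019-43541268, minus strand) carry the highest Bcl11b enrichments.
Il4: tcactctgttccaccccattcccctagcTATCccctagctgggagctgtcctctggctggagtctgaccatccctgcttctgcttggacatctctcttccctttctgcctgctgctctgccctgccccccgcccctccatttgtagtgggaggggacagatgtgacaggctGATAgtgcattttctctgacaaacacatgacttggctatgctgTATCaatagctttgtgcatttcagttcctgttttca
Il13: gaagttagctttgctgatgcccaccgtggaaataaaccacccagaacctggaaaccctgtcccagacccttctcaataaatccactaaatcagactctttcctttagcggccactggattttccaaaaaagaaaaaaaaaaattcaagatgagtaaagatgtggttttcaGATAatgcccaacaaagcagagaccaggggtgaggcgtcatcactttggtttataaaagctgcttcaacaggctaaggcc
Cd274: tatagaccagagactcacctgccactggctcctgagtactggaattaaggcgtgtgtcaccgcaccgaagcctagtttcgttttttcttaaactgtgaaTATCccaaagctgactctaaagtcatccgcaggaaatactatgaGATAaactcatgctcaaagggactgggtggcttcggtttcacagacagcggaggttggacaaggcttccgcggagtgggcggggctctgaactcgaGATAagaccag
Havcr2: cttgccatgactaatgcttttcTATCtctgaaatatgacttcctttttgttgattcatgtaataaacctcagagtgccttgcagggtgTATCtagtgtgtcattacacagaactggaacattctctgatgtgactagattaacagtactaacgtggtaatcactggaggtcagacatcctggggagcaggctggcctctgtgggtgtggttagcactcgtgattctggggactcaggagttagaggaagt
Samsn1: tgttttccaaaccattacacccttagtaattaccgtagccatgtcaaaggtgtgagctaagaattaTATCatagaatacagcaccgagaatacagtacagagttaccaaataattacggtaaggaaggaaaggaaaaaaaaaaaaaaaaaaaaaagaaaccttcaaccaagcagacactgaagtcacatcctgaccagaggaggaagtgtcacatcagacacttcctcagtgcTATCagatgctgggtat
Hist1h1e: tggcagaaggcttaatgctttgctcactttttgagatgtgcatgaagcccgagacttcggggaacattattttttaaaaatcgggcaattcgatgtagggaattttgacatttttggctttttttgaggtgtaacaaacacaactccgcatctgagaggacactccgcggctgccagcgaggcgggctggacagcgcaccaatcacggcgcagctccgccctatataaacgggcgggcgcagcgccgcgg
1700021F05Rik: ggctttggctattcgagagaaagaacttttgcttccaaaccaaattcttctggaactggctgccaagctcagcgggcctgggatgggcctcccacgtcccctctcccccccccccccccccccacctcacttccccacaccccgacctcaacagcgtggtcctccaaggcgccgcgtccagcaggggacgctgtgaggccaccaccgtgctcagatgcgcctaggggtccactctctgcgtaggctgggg
Il4 and Cd274 hold 3 GATA each, Havcr2 and Samsn1 2 each, Il13 1, and Hist1h1e and 1700021F05Rik 0. The upstream windows of Cd55 and Lgals3, which are described below for their RNA, hold 0. The summits listed for Hist1h1e, 1700021F05Rik, Cd55 and Lgals3 lay downstream of the start, outside these upstream windows. The Bcl11b and GATA3 summits were 68 and 1126 bp downstream at Hist1h1e and 8 and 81 bp at 1700021F05Rik. They were 232 and 423 bp downstream at Cd55 and 743 and 565 bp at Lgals3. Both summits lay in such a window at 110 of the 1150 regions. Among these, BC003965 and Got1 were looked at along with Il4 and Samsn1 but are not shown, and their windows hold 1 GATA each.

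GATA3 overlapped 1150 of the 4323 Bcl11b promoter peaks (26.6%) and 5492 of the 10939 Bcl11b peaks farther than 1000 bp from a start (50.2%). The share at promoters went with the width of the Bcl11b peak. Over 4 like-sized groups from narrow to wide it was 20.4%, 22.4%, 24.7% and 39.0%, and the part of the width in the overlap was not tested. Shared promoter peaks had a median width of 1213.5 bp, 53 reads and a deposited fold enrichment of 2.88. The 3173 Bcl11b promoter peaks without GATA3 had medians of 1052 bp, 42 reads and a 2.76-fold enrichment. All fold enrichments, scores and FDR values are the authors' own, from the peak caller.

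GATA3 signal at these promoters was modest. The 1246 GATA3 peaks had a median enrichment of 2.01-fold (0.87 to 35), close to the 2.09-fold of the 1375 GATA3 promoter peaks without Bcl11b. The GATA3 peaks shared with Bcl11b away from promoters had a median of 3.76-fold. At 539 of the 1150 regions (46.9%) the GATA3 enrichment was under 2, and at 33 (2.87%) it was at least 10. The Bcl11b enrichment was at least 10 at 11 regions. The GATA3 enrichment exceeded that of Bcl11b at 378 regions (32.9%). Across the 1150 regions the 2 enrichments were all but unrelated (Spearman's rho 0.08, across regions that share the same 3 libraries). Both were among the highest 100 at 17 regions.

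**Figure D1:**
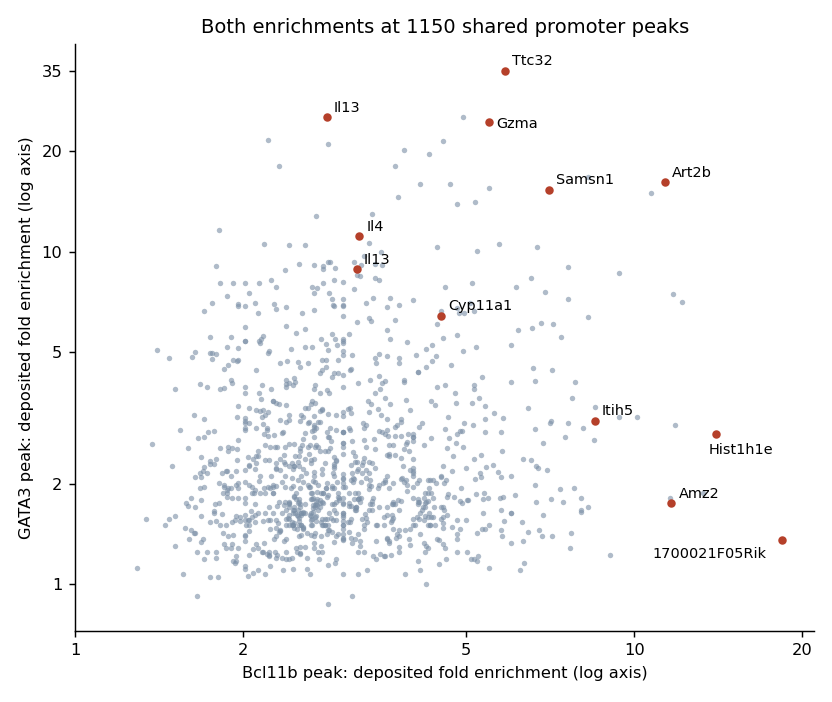
Deposited fold enrichment of the Bcl11b peak (horizontal, log axis) and of the overlapping GATA3 peak (vertical, log axis) at each of the 1150 shared promoter peaks, 1 point a region, with named genes in red. Il13 has 2 peaks; 1700021F05Rik, farthest right for Bcl11b, lies low on the GATA3 axis, and Ttc32, highest for GATA3, lies at 5.87-fold for Bcl11b.

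The highest Bcl11b enrichment, 18.4-fold, was at 1700021F05Rik, where GATA3 stood at 1.36-fold. Hist1h1e, a linker histone gene, came second with 14-fold for Bcl11b and 2.82-fold for GATA3. The highest GATA3 enrichment was 35-fold at Ttc32, with 5.87-fold for Bcl11b. Il13 had 2 regions. The Bcl11b peak at chr11:53634430-53635240 covers the transcription start (2.82-fold) and overlaps a GATA3 peak of 25.38-fold that reaches upstream. The one at chr11:53633446-53634389 lies within the gene, with 3.19-fold for Bcl11b and 8.85-fold for GATA3. Il4 (chr11:53616408-53618284) had 3.22-fold for Bcl11b and 11.11-fold for GATA3. Samsn1, which encodes an adaptor that restrains lymphocyte signalling, and Art2b, an ADP-ribosyltransferase of the T cell surface, were high for both. Samsn1 had 7.03-fold for Bcl11b and 15.35-fold for GATA3, and Art2b had 11.35-fold and 16.15-fold. Art2b has a near-identical neighbour, Art2a-ps, also with a shared peak, so reads of the 2 may be split between them. Gzma, the protease granzyme A, had 5.49-fold for Bcl11b and 24.49-fold for GATA3 at a peak whose summits lay more than 1000 bp upstream of the start. Of 31 Bcl11b promoter peaks at replication-dependent histone genes, 17 were shared, 15 of them on chromosome 13 and 2 on chromosome 3; this group was singled out after its values were seen. Just inside the distance limit lay Hivep2 and Rph3al (1000 bp) and Tmem253 (999 bp), and just outside it Gm5535 (1002 bp), 4930500F04Rik (1008 bp) and Zswim6 (1009 bp).

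Bcl11b summits sat closer to the transcription start than GATA3 summits did. The Bcl11b summit was within 250 bp of the start at 705 regions (61.3%), and the GATA3 summit at 397 (34.5%). A GATA3 summit farther than 1000 bp was found at 131 regions (11.4%), against 41 (3.57%) for Bcl11b. The rule limits the distance of the Bcl11b peak and not that of the GATA3 peak. The median distance between the 2 summits was 219.5 bp. They lay within 100 bp of each other at 377 regions (32.8%) and over 500 bp apart at 331 (28.8%). At Il4 the summits were 111 bp (Bcl11b) and 110 bp (GATA3) upstream of the start, and at Cd274 122 and 99 bp upstream.

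**Figure D2:**
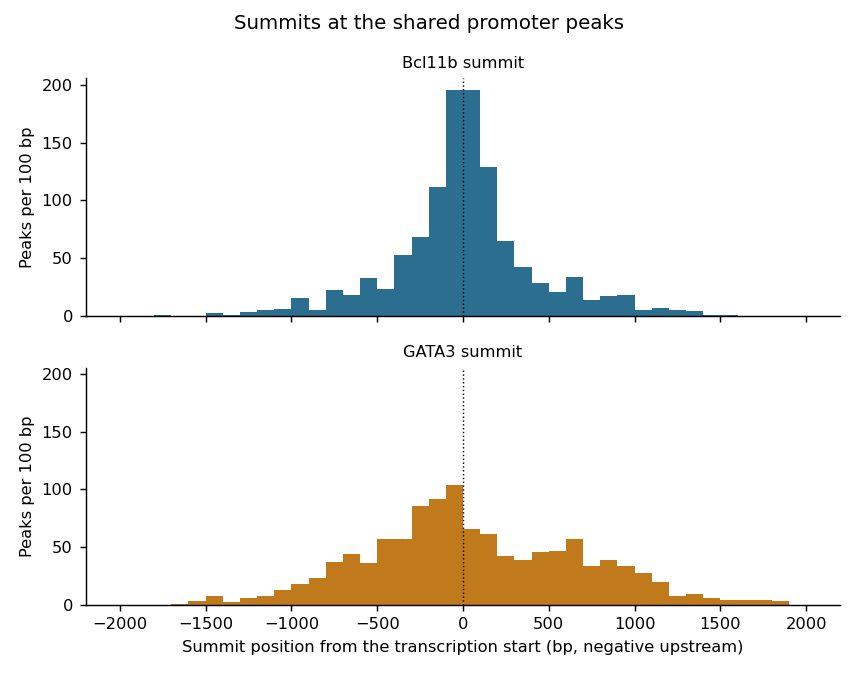
Number of shared promoter peaks per 100 bp by the position of the Bcl11b summit (upper panel) and of the GATA3 summit (lower panel) relative to the transcription start, negative upstream. Bcl11b summits pile up at the start, with 61.3% within 250 bp, while GATA3 summits spread, with 34.5% within 250 bp.

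A RefSeq promoter window, 250 bases before to 50 after a start, was found for 918 regions, 911 windows without repeats. The letters GATA, on either strand, occurred in 414 (45.4%), in 37.6% of the 2430 windows of Bcl11b promoter peaks without GATA3, in 52.2% of the 1034 windows of GATA3 promoter peaks without Bcl11b, and in 57.9% of all 32851 windows. The longer AGATAA or TGATAA, which contain GATA, occurred in 14.1% of shared windows, 6.13% of Bcl11b windows without GATA3, 17.6% of GATA3 windows without Bcl11b and 18.6% of all. Where the GATA3 summit lay inside the window (222), GATA occurred in 66.2% and the longer form in 28.4%. The shared windows were richer in G and C than promoters at large (median 61.3%, against 52.7%), and the part of base composition in these shares was not tested. GGGCGG, the GC box, occurred in 65.3% of shared windows, against 35.7% of all, and CCGGAAG, a strong Ets family site, in 21.3%, against 8.86%. TATAAA, the TATA box, occurred in 7.90%, against 13.6%.

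The genes behind the shared promoters were mostly expressed in Th2 cells, and their median level was above that of the other classes. Of the 1133 genes, 1112 were found in the RNA tables, as 1111 distinct symbols. In late WT libraries of the Bcl11b experiment their median was 8.58 RPKM (reads scaled to transcript length and library size). Genes with a Bcl11b promoter peak without GATA3 had 5.92 RPKM, genes with a GATA3 promoter peak without Bcl11b 3.90 RPKM, and all genes had 0.262 RPKM. In late WT libraries of the Gata3 experiment the same medians were 9.52, 5.87, 4.38 and 0.302 RPKM. A filter of at least 1 RPKM in 2 or more of an experiment's 8 libraries kept 1008 of the 1111 genes for the Bcl11b comparisons and 1006 for those of Gata3. The set holds 9 of 36 listed Th2 genes, 14 of 55 T cell regulators and 16 of 49 T cell signalling genes. It holds 6 of 30 glycolysis and hypoxia genes, 0 of 31 interferon response genes and 4 of 48 cytokine signalling genes. Of the cell cycle genes it holds 6 of 46, of p53 targets 2 of 26 and of ribosome and translation genes 4 of 41. RNA processing has 5 of 39, chromatin regulators 8 of 52, and proteasome and heat shock 6 of 42. Cytotoxic and NK receptor genes have 1 of 21. These lists count untested genes too, whereas the set holds 1008 of the 10870 genes tested in the Bcl11b experiment. No test was made on these overlaps. Il4 and Il13 start 17364 bp apart, and Tnf and Lta, also both in the set, 3344 bp apart.

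Genes with a shared promoter peak changed in both knockouts, in both directions. A gene is called here at an adjusted p under 0.05 by edgeR's quasi-likelihood test, over all genes of an experiment. In early Bcl11b KO cells 127 of 1008 genes rose and 114 fell (23.9%), where 21% of all genes tested were called, 11% rising and 10.1% falling. In late Bcl11b KO cells 15 rose and 10 fell (2.48%), where 2.22% of all genes were called, 1.69% rising and 0.524% falling. In early Gata3 KO cells 153 of 1006 genes rose and 213 fell (36.4%), where 30.7% of all genes were called, 14% rising and 16.8% falling. In late Gata3 KO cells 91 rose and 82 fell (17.2%), where 14% of all genes were called, 8.44% rising and 5.59% falling. The 4 shares lie near those over all genes, and the medians of the log2 fold changes (0.08, -0.04, -0.04 and -0.02) lie near 0. Genes with a Bcl11b promoter peak without GATA3 were called at 18.8%, 1.54%, 28.8% and 11.5% in the same order, and genes with a GATA3 promoter peak without Bcl11b at 23.6%, 2.89%, 36.5% and 19.2%. The classes differ in expression level too, and the part of that in the shares was not tested. The Bcl11b shares hung on the libraries fitted together. A fit of only the 4 late Bcl11b libraries called 171 of 1008 genes (16.96%), where 14.7% of all genes were called. A fit of only the 4 early Bcl11b libraries called 113 of 1007 genes (11.2%), where 9.35% of all genes were called. The early share was thus above the late one with all 8 libraries fitted, and below it with 4. The late Bcl11b count was the least stable. It was 1 to 3 without any 1 of the 4 late libraries, and 52 without either early WT library. The early Gata3 count was 229 without early KO library 2, and the late Gata3 count 97 and 100 without late WT library 1 and 2. The early Bcl11b split hangs on the scaling: with limma on log2(RPKM + 1), which scales to all reads, 671 genes rose and 19 fell, and the median over all genes was 0.86. The same fit gave 10 rises and 11 falls in late Bcl11b KO cells, with a median over all genes of -0.16. Changes in early Bcl11b KO cells are therefore given relative to the other genes.

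**Figure D3:**
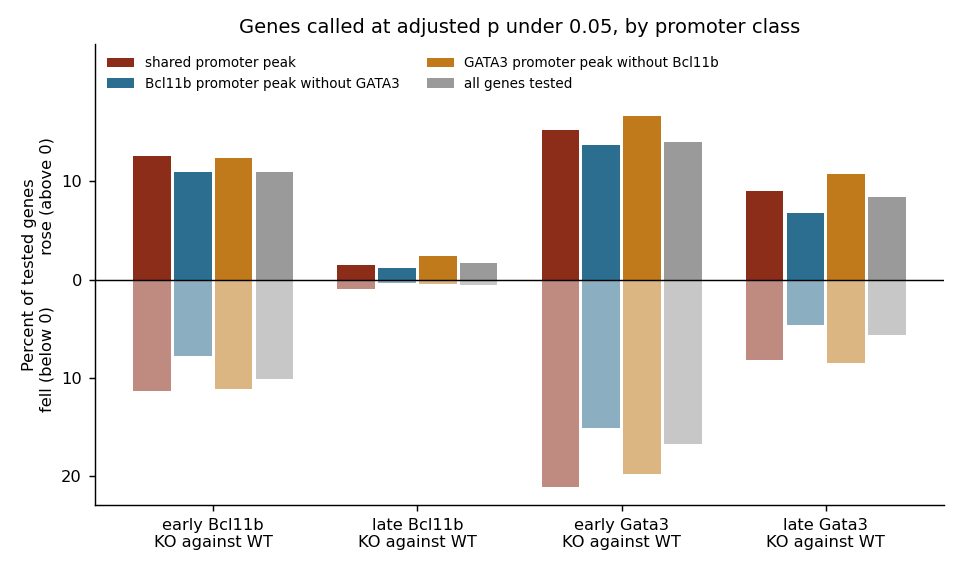
Percent of tested genes that rose (above 0, full colour) or fell (below 0, pale) at an adjusted p under 0.05 in each KO against WT comparison, for genes with a shared promoter peak, with a Bcl11b promoter peak without GATA3, with a GATA3 promoter peak without Bcl11b, and for all genes tested. The shared class stands near the other classes in each comparison, and falls in early Gata3 KO cells (213 of 1006) are its largest bar.

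The effect of a KO could differ between the early and late labels. For Bcl11b, 36 of 1008 genes (3.57%) differed, where 3.24% of all genes did. For Gata3, 139 of 1006 (13.8%) differed, where 12.2% of all genes did. Of the 139, 97 had the higher log2 fold change at the late label, as did 820 of the 1294 that differed over all genes. With limma on log2(RPKM + 1) the difference was positive in 80 and negative in 59 genes for Gata3, and positive in 13 and negative in 610 for Bcl11b, where edgeR gave 21 and 15. Leaving out 1 library changed these counts to 5 to 75 for Bcl11b (5 without late WT library 1, 75 without early WT library 2) and to 85 for Gata3 without early KO library 2. Of the 984 genes tested in both experiments, 459 (46.6%) were called in none of the 4 comparisons, and 6 (0.610%) in all 4. Over all 9985 genes tested in both experiments these shares were 55.1% and 0.411%. At the early stage, 37 of the 984 genes (3.76%) fell in both knockouts, where 195 of the 9985 (1.95%) did, and 33 (3.35%) rose in Bcl11b KO and fell in Gata3 KO, where 273 (2.73%) did.

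Il13 moved in opposite directions in the 2 knockouts. Il13, which encodes the cytokine behind mucus production and worm expulsion, had 182 and 119 CPM in early Bcl11b KO libraries, against 7.54 and 5.87 CPM in WT libraries. Both KO libraries were above both WT libraries (log2 fold change 4.48 ± 0.29, adjusted p = 2.13e-05). At the late stage Il13 had 3208 and 3115 CPM in KO libraries, against 1589 and 2191 CPM in WT libraries, and this difference did not pass the test (log2 fold change 0.74 ± 0.22, adjusted p = 0.128). The early rise was larger than the late difference (-3.74 ± 0.36 for late minus early, adjusted p = 0.00169). In the Gata3 experiment Il13 had 2.38 and 1.03 CPM in early Gata3 KO libraries, against 214 and 210.3 CPM in WT libraries (log2 fold change -6.93 ± 0.23, adjusted p = 1.83e-07). It had 5.09 and 5.88 CPM in late Gata3 KO libraries, against 180.2 and 206 CPM in WT libraries (log2 fold change -5.11 ± 0.20, adjusted p = 2.04e-06). Both Gata3 KO groups were low, the early one lower (late minus early 1.82 ± 0.34, adjusted p = 0.00789).

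Il4, the cytokine that starts Th2 differentiation, had 3.14 and 2.17 CPM in early Gata3 KO libraries, against 199.7 and 232 CPM in WT libraries, a fall at the early label (log2 fold change -6.33 ± 0.32, adjusted p = 7.50e-07). At the late label it had 96.9 and 155 CPM in KO libraries, against 179.9 and 252 CPM in WT libraries, and the KO libraries were below WT but short of the threshold (log2 fold change -0.77 ± 0.23, adjusted p = 0.0509). Il4 passed at the late label with DESeq2 (adjusted p = 0.00403) and with a replicate block in edgeR (-0.78, adjusted p = 9.42e-04). The labels name no shared source for a replicate number. Its late log2 fold change was -1.16 without late KO library 2 and -0.999 without late WT library 1. The effect differed between the labels (5.56 ± 0.40, adjusted p = 5.75e-05). In the Bcl11b experiment Il4 had 32.0 and 47.1 CPM in early Bcl11b KO libraries, against 39.2 and 26.2 CPM in WT libraries, and the groups overlapped. Late Bcl11b KO libraries had 141 and 111 CPM of Il4, against 62.2 and 51.5 CPM in late WT libraries, without overlap but short of the threshold (log2 fold change 1.15 ± 0.29, adjusted p = 0.0767). Il5, which lies at the same locus but has no shared promoter peak, had 5.197 and 1.37 CPM in early Gata3 KO libraries, against 393 and 311 CPM in WT libraries. It had 2.94 and 1.93 CPM in late Gata3 KO libraries, against 436 and 289 CPM in WT libraries, so both Il5 and Il13 stayed low at the late label. Like Il13, Il5 rose in early Bcl11b KO cells, so this was not particular to a gene with a shared promoter peak. Il5 had 29.4 and 57.0 CPM in early KO libraries, against 0.419 and 9.43 CPM in WT libraries (log2 fold change 3.13 ± 0.65, adjusted p = 0.00773, edgeR). Late Bcl11b KO libraries had 1279 and 987 CPM of Il5, against 370 and 321 CPM in WT libraries (1.72 ± 0.50, adjusted p = 0.121).

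**Figure D4:**
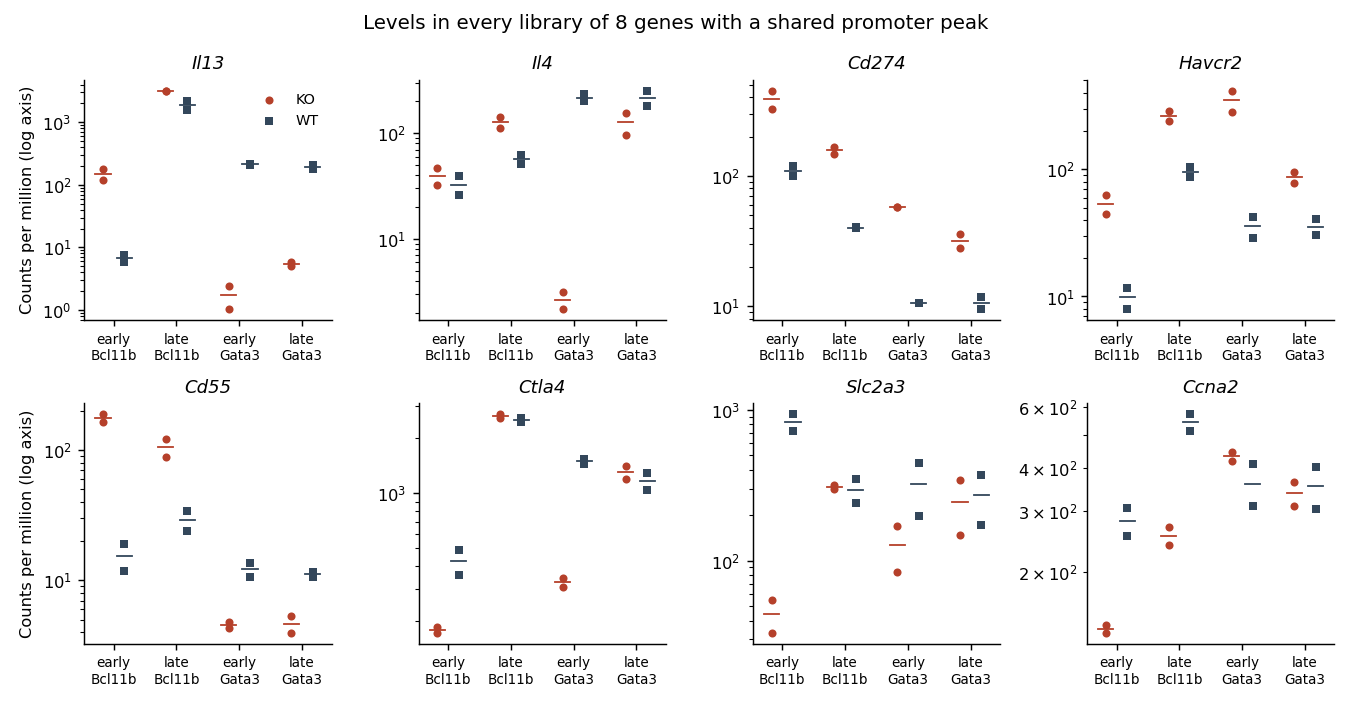
CPM (log axis) in every library for 8 genes with a shared promoter peak, in the early and late Bcl11b and Gata3 experiments; circles are KO and squares WT libraries, 2 each, and short bars are means. Il13 stood above WT in early Bcl11b KO cells (182 and 119 CPM, against 7.54 and 5.87) and below it in both Gata3 KO groups, while Il4 was low in early Gata3 KO cells (3.14 and 2.17 CPM, against 200 and 232).

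Of the 9 Th2 genes with a shared promoter peak, 7 fell and 1 rose in early Gata3 KO cells, and 5 fell and 1 rose in late Gata3 KO cells. In early Bcl11b KO cells 3 rose, and in late Bcl11b KO cells 1 rose. Over all genes tested, 16.8% fell and 14% rose in early Gata3 KO cells, 5.59% fell and 8.44% rose in late Gata3 KO cells, and 11% and 1.69% rose in early and late Bcl11b KO cells. Of the 31 listed Th2 genes tested, 24 fell and 3 rose in early and 14 fell and 5 rose in late Gata3 KO cells, and 10 and 3 rose in early and late Bcl11b KO cells. The late Bcl11b rise was that of Il1r2, whose adjusted p was 0.247 to 0.317 without any 1 of the 4 late libraries. Its late fall in Gata3 KO cells was lost without 4 of the 8 libraries, each left out alone (0.0812 to 0.258). The early Bcl11b rise of Il2ra was lost without either early KO library or early WT library 1 (0.0650 to 0.143), and the early Gata3 fall of Gfi1 without early KO library 1 (0.153) or early WT library 1 (0.0924). The members in early Gata3 KO cells had a median log2 fold change of -2.20, against -0.00 over all genes tested. The 31 listed Th2 genes tested had a median of -1.99 there. Il2ra, the high-affinity IL-2 receptor chain, had 749 and 688 CPM in early Gata3 KO libraries, against 3289 and 3332 CPM in WT libraries (log2 fold change -2.20 ± 0.11, adjusted p = 5.77e-07). It had 2007 and 1867 CPM in late Gata3 KO libraries, against 3243 and 3267 CPM in WT libraries (log2 fold change -0.75 ± 0.10, adjusted p = 0.00119), so the gap was smaller at the late label (late minus early 1.45 ± 0.15, adjusted p = 2.57e-04). Batf, an AP-1 family factor of T helper cells, had 127 and 115 CPM in early Gata3 KO libraries, against 698 and 520.4 CPM in WT libraries (log2 fold change -2.33 ± 0.19, adjusted p = 1.31e-05). Its late fall (-0.94 ± 0.18) had an adjusted p of 0.0510 without late KO library 2. Il1r2, a decoy receptor for IL-1, had 9.74 and 8.12 CPM in early Gata3 KO libraries, against 381 and 235 CPM in WT libraries (log2 fold change -5.10 ± 0.38, adjusted p = 6.08e-06). Epas1, a hypoxia-inducible factor, fell at both labels (-0.98 ± 0.13 early and -1.61 ± 0.13 late, adjusted p = 2.80e-04 and 5.41e-05) and rose in early Bcl11b KO cells (1.03 ± 0.17, adjusted p = 0.00269). The exception was Il4ra, the IL-4 receptor chain, which rose in early (0.57 ± 0.17, adjusted p = 0.0285) and late Gata3 KO cells. It had 2099 and 1789 CPM in late Gata3 KO libraries, against 1003 and 763 CPM in WT libraries (log2 fold change 1.14 ± 0.17, adjusted p = 0.00197). Its early call was lost without early KO library 1 (adjusted p = 0.160), early KO library 2 (0.0632) or early WT library 2 (0.172). Nfil3, a leucine zipper factor, passed the test in none of the 4 comparisons.

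Other genes that fell in early Gata3 KO cells encode an enzyme, receptors and a phosphatase. Cyp11a1, the enzyme that starts steroid synthesis from cholesterol, had 11.3 and 5.84 CPM in early Gata3 KO libraries, against 1366 and 1584 CPM in WT libraries (log2 fold change -7.42 ± 0.35, adjusted p = 5.48e-07). It had 125 and 73.4 CPM in late Gata3 KO libraries, against 1576 and 1593 CPM in WT libraries, still low (log2 fold change -4.01 ± 0.29, adjusted p = 2.58e-05). Ccr1, a chemokine receptor, had 3.36 and 1.49 CPM in early Gata3 KO libraries, against 224 and 289.6 CPM in WT libraries (log2 fold change -6.71 ± 0.28, adjusted p = 2.99e-07), but 157 CPM in each late KO library, against 240.1 and 299 CPM in late WT libraries (log2 fold change -0.78 ± 0.19, adjusted p = 0.0238). The late Ccr1 call was lost without late KO library 1 (adjusted p = 0.0889), late KO library 2 (0.0841) or late WT library 2 (0.144). Cysltr1, a receptor for cysteinyl leukotrienes, had 30.3 and 21.3 CPM in early Gata3 KO libraries, against 518 and 569 CPM in WT libraries (log2 fold change -4.40 ± 0.22, adjusted p = 7.21e-07). At the late label Cysltr1 had 478 and 334 CPM in KO libraries, against 522 and 583 CPM in WT libraries, with both KO libraries below both WT libraries but short of the threshold (adjusted p = 0.163). Dusp16, a phosphatase of the JNK and p38 kinases, had 7.15 and 4.92 CPM in early Gata3 KO libraries, against 129 and 134 CPM in WT libraries (log2 fold change -4.44 ± 0.24, adjusted p = 9.04e-07), and 65.2 and 42.0 CPM in late Gata3 KO libraries, against 134 and 144 CPM in WT libraries. Lama5, a laminin chain, also fell (-4.43 ± 0.22 early and -1.57 ± 0.19 late). For Ccr1, Cysltr1, Dusp16 and Lama5 the late effect was smaller than the early one, with adjusted p of 2.06e-05, 5.75e-05, 2.61e-04 and 2.45e-04.

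A second group of genes was low by about as much at both labels. Cldnd1, which encodes a claudin-like membrane protein, had 71.1 and 75.1 CPM in early Gata3 KO libraries, against 586 and 614 CPM in WT libraries (log2 fold change -3.04 ± 0.12, adjusted p = 2.90e-07). It had 91.8 and 109 CPM in late Gata3 KO libraries, against 640.0 and 641 CPM in WT libraries (log2 fold change -2.67 ± 0.12, adjusted p = 2.42e-06), and the difference between the labels did not pass the test (0.37 ± 0.16, adjusted p = 0.184). Cpox, also on chromosome 16, an enzyme of heme synthesis, had 22.3 and 21.3 CPM in early Gata3 KO libraries, against 155 and 176 CPM in WT libraries (log2 fold change -2.92 ± 0.14, adjusted p = 6.15e-07) and a late log2 fold change of -2.50 ± 0.14. Samsn1, whose promoter is printed above, had 95.1 and 92.9 CPM in early Gata3 KO libraries, against 442 and 508 CPM in WT libraries (log2 fold change -2.34 ± 0.14, adjusted p = 1.70e-06). It had 147 and 121 CPM in late Gata3 KO libraries, against 447 and 523 CPM in WT libraries (log2 fold change -1.86 ± 0.14, adjusted p = 3.38e-05). Zap70, the kinase at the T cell receptor, had log2 fold changes of -0.76 ± 0.10 and -0.77 ± 0.10 (adjusted p = 3.41e-04 and 0.00110). These genes passed the test in neither Bcl11b comparison. The early Bcl11b values of Cldnd1 and Cpox hung on early WT library 2, which has a high receptor background. Without it the log2 fold change was 1.69 for Cldnd1 (-0.09 with all libraries) and -0.91 for Cpox (-0.49).

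**Figure D5:**
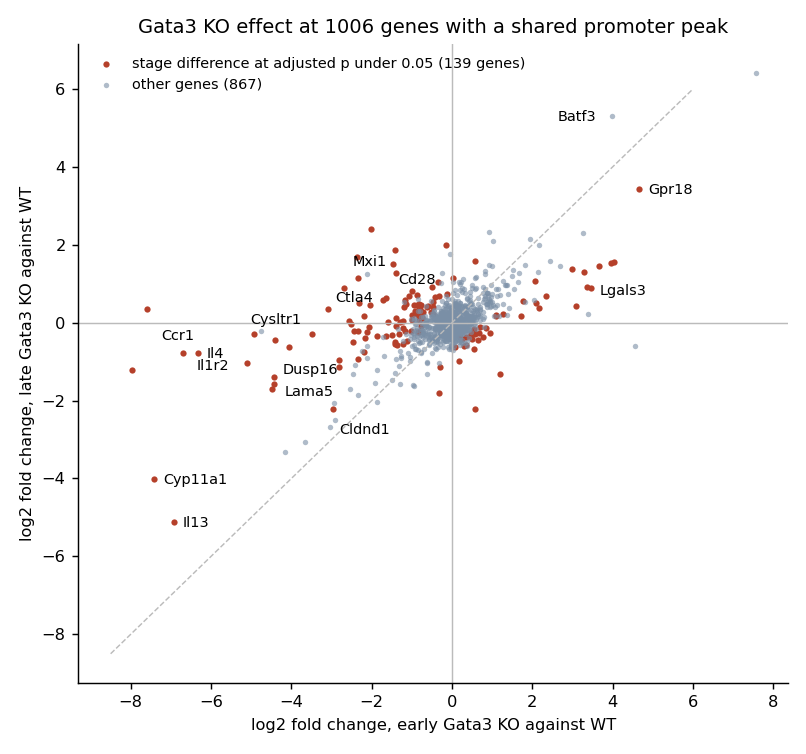
Log2 fold change in late Gata3 KO against WT (vertical) by that in early Gata3 KO against WT (horizontal) for the 1006 tested genes with a shared promoter peak, 1 point a gene; red points are the 139 genes whose 2 effects differ at an adjusted p under 0.05, and the dashed line marks equal effects. Il4, Ccr1 and Cysltr1 lie far left but near 0 on the vertical axis, while Il13, Cyp11a1 and Cldnd1 are low on both; the WT libraries of the 2 labels were nearly alike.

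Gpr18 and Batf3 rose in Gata3 KO cells at both labels. Gpr18, a receptor for lipid-derived ligands, had 171 and 166 CPM in early Gata3 KO libraries, against 6.10 and 7.14 CPM in WT libraries (log2 fold change 4.67 ± 0.15, adjusted p = 1.24e-07). It had 63.6 and 71.8 CPM in late Gata3 KO libraries, against 6.38 and 6.11 CPM in WT libraries (log2 fold change 3.44 ± 0.14, adjusted p = 2.04e-06). Batf3, an AP-1 family factor, had 123 and 68.7 CPM in early Gata3 KO libraries, against 7.05 and 5.14 CPM in WT libraries (log2 fold change 3.98 ± 0.30, adjusted p = 6.79e-06), and 184 and 178 CPM in late Gata3 KO libraries, against 5.23 and 3.86 CPM in WT libraries (log2 fold change 5.31 ± 0.31, adjusted p = 1.02e-05). Neither passed the test in the Bcl11b comparisons. Art2b had 59.7 and 59.8 CPM in early Gata3 KO libraries, against 3.93 and 5.39 CPM in WT libraries (log2 fold change 3.67 ± 0.20, adjusted p = 1.01e-06), with the reservation on its near-identical neighbour. Markers of other cells moved here too: the 2 NK cell markers summed to 9.47 and 10.7 RPKM in early Gata3 KO libraries, against 0.0292 and 0 RPKM in WT libraries. All of it was Klrb1c, with Ncr1 at 0. The 2 CD8 T cell markers summed to 12.8 and 10.5 RPKM in early Gata3 KO libraries, against 4.25 and 3.29 RPKM in WT libraries. In bulk RNA, fewer cells of a type and less RNA per cell cannot be told apart, and the part of these cells in the changes was not tested.

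The 6 genes called in all 4 comparisons are Cd274, Havcr2, Lgals3, Cd55, Afg3l2 and Smc5, though the 2 Gata3 comparisons have nearly alike WT libraries. Cd274, which encodes the inhibitory ligand PD-L1, rose in each. It had 449 and 323 CPM in early Bcl11b KO libraries, against 118 and 99.3 CPM in WT libraries (log2 fold change 1.83 ± 0.21, adjusted p = 4.40e-04). It had 166 and 148 CPM in late Bcl11b KO libraries, against 39.5 and 40.5 CPM in WT libraries (log2 fold change 1.97 ± 0.21, adjusted p = 0.00150). In the Gata3 experiment it had 57.5 and 57.3 CPM in early Gata3 KO libraries, against 10.6 and 10.6 CPM in WT libraries (log2 fold change 2.43 ± 0.18, adjusted p = 5.89e-06). It had 27.8 and 35.9 CPM in late Gata3 KO libraries, against 9.52 and 11.8 CPM in WT libraries (log2 fold change 1.59 ± 0.18, adjusted p = 3.53e-04). In each comparison both KO libraries lay above both WT libraries, and its call held without any 1 library.

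Havcr2, which encodes the inhibitory receptor TIM-3, also rose in all 4 comparisons. It had 62.7 and 44.9 CPM in early Bcl11b KO libraries, against 7.96 and 11.7 CPM in WT libraries (log2 fold change 2.45 ± 0.28, adjusted p = 4.40e-04). It had 288 and 239 CPM in late Bcl11b KO libraries, against 104 and 87.1 CPM in WT libraries (log2 fold change 1.46 ± 0.25, adjusted p = 0.0148). In early Gata3 KO libraries it had 416 and 284 CPM, against 28.9 and 42.2 CPM in WT libraries (log2 fold change 3.30 ± 0.25, adjusted p = 6.61e-06). In late Gata3 KO libraries it had 78.3 and 94.98 CPM, against 30.4 and 40.4 CPM in WT libraries (log2 fold change 1.30 ± 0.24, adjusted p = 0.00579). Lgals3, which encodes galectin-3, a lectin that binds surface glycoproteins, had log2 fold changes of 1.62 ± 0.33 (early Bcl11b KO), 1.56 ± 0.31 (late Bcl11b KO), 3.45 ± 0.20 (early Gata3 KO) and 0.89 ± 0.19 (late Gata3 KO), all past the threshold. Its late Gata3 call was lost without late KO library 1 (adjusted p = 0.0565) and without late WT library 1 (0.0827). Without any 1 of the 4 late libraries the late Bcl11b calls were lost too, with adjusted p of 0.0933 to 0.204 for Havcr2 and 0.148 to 0.344 for Lgals3.

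Cd55, which encodes decay-accelerating factor, a brake on complement, moved in opposite directions. It had 189 and 165 CPM in early Bcl11b KO libraries, against 19.1 and 11.7 CPM in WT libraries (log2 fold change 3.52 ± 0.32, adjusted p = 1.48e-04). It had 122 and 88.6 CPM in late Bcl11b KO libraries, against 34.0 and 23.9 CPM in WT libraries (log2 fold change 1.86 ± 0.29, adjusted p = 0.0105). In the Gata3 experiment, at far lower levels, it had 4.33 and 4.81 CPM in early Gata3 KO libraries, against 13.7 and 10.6 CPM in WT libraries (log2 fold change -1.41 ± 0.25, adjusted p = 0.00171) and 5.28 and 3.95 CPM in late Gata3 KO libraries, against 10.7 and 11.6 CPM in WT libraries (log2 fold change -1.30 ± 0.25, adjusted p = 0.00816). Both late calls leaned on single libraries. The late Gata3 adjusted p was 0.0665 without late KO library 2, and the late Bcl11b adjusted p was 0.0505 to 0.161 without any 1 of the late libraries. Mmp10, which encodes the matrix protease stromelysin-2, went the same way. It had 75.4 and 64.6 CPM in early Bcl11b KO libraries, against 3.77 and 0.210 CPM in WT libraries (log2 fold change 5.13 ± 0.69, adjusted p = 0.00101). In early Gata3 KO libraries it had 0 reads, against 3.25 and 4.13 CPM in WT libraries, at least 22.2-fold lower in KO when 3 reads over the group are set as the floor. Phlda1, an early response gene, had 64.5 and 71.7 CPM in early Bcl11b KO libraries, against 1.26 and 5.66 CPM in WT libraries (log2 fold change 4.30 ± 0.43, adjusted p = 2.25e-04), and 17.1 and 18.1 CPM in early Gata3 KO libraries, against 102 and 99.2 CPM in WT libraries (log2 fold change -2.52 ± 0.14, adjusted p = 1.19e-06). At the late stage Phlda1 passed the test in neither experiment.

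Of the 16 T cell signalling genes with a shared promoter peak, 4 rose and 6 fell in early Gata3 KO cells, and 5 rose and 3 fell in late Gata3 KO cells. In early Bcl11b KO cells 4 rose and 3 fell, and in late Bcl11b KO cells 1 rose. Over all genes tested, 14% rose and 16.8% fell in early Gata3 KO, 8.44% and 5.59% in late Gata3 KO, and 11% and 10.1% in early Bcl11b KO cells, and 1.69% rose in late Bcl11b KO cells. Of the 49 listed signalling genes, all tested, 16 rose and 13 fell in early Gata3 KO, 14 rose and 8 fell in late Gata3 KO, and 14 rose and 4 fell in early Bcl11b KO cells, and 4 rose in late Bcl11b KO cells. Ctla4, an inhibitory receptor, had 344 and 307 CPM in early Gata3 KO libraries, against 1536 and 1453 CPM in WT libraries (log2 fold change -2.20 ± 0.14, adjusted p = 2.69e-06). At the late label it had 1407 and 1201 CPM in KO libraries, against 1039.6 and 1288 CPM in WT libraries, overlapping (log2 fold change 0.16 ± 0.14, adjusted p = 0.492). It had 172 and 186 CPM in early Bcl11b KO libraries, against 492 and 357 CPM in WT libraries (log2 fold change -1.25 ± 0.17, adjusted p = 0.00106), while late Bcl11b KO and WT libraries lay between 2460 and 2705 CPM. On the RPKM scale that scales to all reads, the early Bcl11b difference of Ctla4 was -0.08 and did not pass. Cd28, the costimulatory receptor, fell in early Gata3 KO cells and rose in late ones. It had 263 and 220.3 CPM in early Gata3 KO libraries, against 472 and 541 CPM in WT libraries (log2 fold change -1.07 ± 0.13, adjusted p = 2.10e-04), and 845 and 821 CPM in late Gata3 KO libraries, against 478 and 565 CPM in WT libraries (log2 fold change 0.68 ± 0.13, adjusted p = 0.00864). The effects differed (1.74 ± 0.19, adjusted p = 4.04e-04), and the late call was lost without late WT library 1 (adjusted p = 0.0779). Bcl2, the survival factor, rose by about the same at both labels (0.97 ± 0.16 early and 0.96 ± 0.16 late, adjusted p = 0.00117 and 0.00344).

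Malt1 and Themis, named after their values were seen, moved in opposite directions in early Gata3 KO cells. Malt1, a protease and scaffold on the way to NF-κB, had 60.3 and 69.5 CPM in early Gata3 KO libraries, against 289.7 and 274 CPM in WT libraries (log2 fold change -2.12 ± 0.13, adjusted p = 1.75e-06), and its early Bcl11b log2 fold change was -1.19 ± 0.25 (adjusted p = 0.00782). Themis, an adaptor of T cell receptor signalling, had 469.9 and 424 CPM in early Gata3 KO libraries, against 276 and 312 CPM in WT libraries (log2 fold change 0.60 ± 0.12, adjusted p = 0.00441), and 736 and 622 CPM in late Gata3 KO libraries, against 299.7 and 307 CPM in WT libraries (log2 fold change 1.16 ± 0.12, adjusted p = 2.80e-04). In early Bcl11b KO cells it fell (-0.82 ± 0.19, adjusted p = 0.0131), which was lost without early KO library 2 (adjusted p = 0.0613) and turned to 0.30 on the log2(RPKM + 1) scale.

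Of the 14 T cell regulators with a shared promoter peak, 2 rose and 5 fell in early Gata3 KO cells, and 3 rose and 1 fell in early Bcl11b KO cells. In late Gata3 KO cells 2 fell. Of the 52 listed regulators tested, 14 rose and 17 fell in early Gata3 KO cells, 8 rose and 5 fell in early Bcl11b KO cells, and 6 rose and 8 fell in late Gata3 KO cells. Over all genes tested, 14% rose and 16.8% fell in early Gata3 KO cells, 11% rose and 10.1% fell in early Bcl11b KO cells, and 5.59% fell in late Gata3 KO cells. Bcl11b itself had 109 and 107 CPM in early Gata3 KO libraries, against 161 and 134 CPM in WT libraries. It fell there (log2 fold change -0.45 ± 0.12, adjusted p = 0.0201, edgeR), by -0.31 without early WT library 1. At the late Gata3 label its difference did not pass the test (-0.28 ± 0.12, adjusted p = 0.183). Id2, an inhibitor of E protein factors, had 1128 and 919 CPM in early Gata3 KO libraries, against 2155 and 1973 CPM in WT libraries (log2 fold change -1.01 ± 0.13, adjusted p = 2.98e-04). In early Bcl11b KO cells it rose (0.72 ± 0.16, adjusted p = 0.0116, or 0.0806 without early KO library 2). Mxi1, a repressor of the MYC network, changed sign between the Gata3 labels. It had 21.1 and 18.7 CPM in early Gata3 KO libraries, against 59.8 and 45.0 CPM in WT libraries (log2 fold change -1.39 ± 0.17, adjusted p = 1.51e-04), and 112 and 94.4 CPM in late Gata3 KO libraries, against 43.1 and 42.4 CPM in WT libraries (log2 fold change 1.26 ± 0.16, adjusted p = 6.98e-04). The difference of the effects was 2.66 ± 0.23 (adjusted p = 1.27e-04).

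Genes of glucose use fell in early Bcl11b KO cells relative to the other genes. By edgeR all 5 tested members of the glycolysis and hypoxia list fell (Slc2a1, Slc2a3, Pgk1, Hif1a and Mxi1), though Hif1a turned to 0.34 on the log2(RPKM + 1) scale, and 24 of the 27 listed genes tested fell, where 10.1% of all genes did. The members' median log2 fold change was -1.63, against -1.39 over the 27 listed genes tested and 0.03 over all genes. On that scale Slc2a3 and Mxi1 were below WT past the threshold, and Slc2a1 and Pgk1 below WT short of it. Slc2a3, a glucose transporter, had 54.6 and 33.2 CPM in early Bcl11b KO libraries, against 930.3 and 720.1 CPM in WT libraries (log2 fold change -4.23 ± 0.29, adjusted p = 2.82e-05). Late, its groups overlapped, and the effects differed (4.29 ± 0.38, adjusted p = 0.00116). Pgk1, a glycolytic kinase chosen after its values were seen, had 919 and 1043 CPM in early Bcl11b KO libraries, against 3562 and 2525 CPM in WT libraries (log2 fold change -1.63 ± 0.19, adjusted p = 4.52e-04).

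Ppp1r3b, Gbe1 and Me2 also fell in early Bcl11b KO cells. Ppp1r3b, which targets a phosphatase to glycogen, had 46.8 and 35.4 CPM in early Bcl11b KO libraries, against 951 and 595 CPM in WT libraries (log2 fold change -4.23 ± 0.35, adjusted p = 9.41e-05). Gbe1, the glycogen branching enzyme, had 7.61 and 14.9 CPM in early Bcl11b KO libraries, against 179 and 173 CPM in WT libraries (log2 fold change -3.97 ± 0.39, adjusted p = 2.18e-04). Me2, a mitochondrial malic enzyme, had 124 and 106 CPM in early Bcl11b KO libraries, against 412 and 455 CPM in WT libraries (log2 fold change -1.92 ± 0.19, adjusted p = 1.94e-04). Late, Ppp1r3b and Gbe1 overlapped between the groups. Itih5, with the sixteenth highest Bcl11b enrichment (8.5-fold), had 39.0 and 54.9 CPM in early Bcl11b KO libraries, against 240.4 and 305 CPM in WT libraries (log2 fold change -2.54 ± 0.22, adjusted p = 1.19e-04). The 2 early WT libraries of this comparison are those with the high receptor background, and the RPKM of markers of other cells also differed. Mast cell and basophil markers summed to 12.3 and 12.3 RPKM in early KO libraries, against 0.265 and 0.768 RPKM in WT libraries. This was nearly all Cpa3, with Mcpt8 and Ms4a2 at 0 in both KO libraries. B cell markers summed to 24.5 and 33.8 RPKM in KO, against 14.0 and 8.46 RPKM in WT, and CD8 T cell markers to 16.2 and 17.6 RPKM in KO, against 3.38 and 3.29 RPKM in WT. These RPKM are scaled to all reads. With limma on log2(RPKM + 1) the median difference over all genes was 0.86 in early Bcl11b KO cells. By edgeR, 0 of 3 listed B cell markers tested rose or fell (median log2 fold change 0.19), and the 1 mast cell and basophil marker tested rose. With the receptor background subtracted from the counts, 107 genes with a shared promoter peak rose and 117 fell (22.2%), where 19.7% of all genes were called. The part of the other cells was not tested.

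Several cell division genes with a shared promoter peak fell in late Bcl11b KO cells. Ccna2, the cyclin of DNA synthesis and mitosis, had 269.9 and 239 CPM in late Bcl11b KO libraries, against 572 and 512 CPM in WT libraries (log2 fold change -1.09 ± 0.17, adjusted p = 0.00995). Cdt1, which licenses replication origins, had 27.9 and 27.4 CPM in late Bcl11b KO libraries, against 63.7 and 65.2 CPM in WT libraries (log2 fold change -1.22 ± 0.25, adjusted p = 0.0334). Incenp, a subunit of the chromosomal passenger complex, had 79.8 and 85.9 CPM in late Bcl11b KO libraries, against 139 and 154 CPM in WT libraries (log2 fold change -0.82 ± 0.17, adjusted p = 0.0372). Hist1h1e had 144 and 189.8 CPM in late Bcl11b KO libraries, against 279 and 501 CPM in WT libraries (log2 fold change -1.23 ± 0.27, adjusted p = 0.0458), with the reservation that histone genes are near-identical copies. Of the 6 cell cycle genes in the set, 2 fell, as did 10 of 45 listed genes tested, where 0.524% of all genes fell. In early Bcl11b KO cells 3 of the 6 fell and 1 rose. There 13 of the 45 listed genes fell and 4 rose, where 10.1% of all genes fell and 11% rose. Without any 1 of the 4 late libraries all these calls were lost, with adjusted p of 0.0695 to 0.151 for Ccna2, 0.231 to 0.321 for Cdt1, 0.190 to 0.347 for Incenp and 0.0684 to 0.441 for Hist1h1e. Hist1h1e was also lost without either early KO library (0.0543 and 0.0548). By edgeR these 4 genes also fell in early Bcl11b KO cells. Their late minus early differences did not pass the test (-0.05 for Ccna2, -0.16 for Cdt1, 0.15 for Incenp and -0.04 for Hist1h1e). On the log2(RPKM + 1) scale the early differences of Ccna2, Cdt1 and Incenp turned to 0.11, 0.081 and 0.16. In the Gata3 experiment these 4 genes passed the test in neither comparison.

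Rises in late Bcl11b KO cells included surface and secreted molecules of the immune system. Tnfrsf9, the costimulatory receptor 4-1BB, had 3015 and 3334 CPM in late Bcl11b KO libraries, against 1063 and 1508 CPM in WT libraries (log2 fold change 1.30 ± 0.20, adjusted p = 0.00995). Lta, the cytokine lymphotoxin alpha, had 31.7 and 20.4 CPM in late Bcl11b KO libraries, against 7.70 and 8.44 CPM in WT libraries (log2 fold change 1.69 ± 0.30, adjusted p = 0.0179), and also rose in Gata3 KO cells (2.17 ± 0.25 early and 2.00 ± 0.25 late, adjusted p = 1.25e-04 and 6.83e-04). Tnfsf13b, the B cell factor BAFF, had 88.8 and 73.2 CPM in early Bcl11b KO libraries, against 11.1 and 12.99 CPM in WT libraries (log2 fold change 2.75 ± 0.29, adjusted p = 2.93e-04), and 59.5 and 70.3 CPM in late Bcl11b KO libraries, against 17.9 and 19.99 CPM in WT libraries (log2 fold change 1.78 ± 0.27, adjusted p = 0.00995). Dhrs3, a retinaldehyde reductase, had 76.0 and 84.3 CPM in late Bcl11b KO libraries, against 17.4 and 13.6 CPM in WT libraries (log2 fold change 2.37 ± 0.43, adjusted p = 0.0214). Each of these late calls was lost without some 1 late library, with adjusted p of 0.0845 to 0.0999 for Tnfrsf9 (without late KO library 1, late KO library 2 or late WT library 1) and, without any of the 4, 0.0505 to 0.214 for Lta, 0.0949 to 0.134 for Tnfsf13b and 0.163 to 0.235 for Dhrs3. Cd274 was the exception among the genes named. The 4 B cell markers summed to 5.79 and 7.56 RPKM in late Bcl11b KO libraries, against 1.68 and 1.29 RPKM in WT libraries, and the 4 macrophage and dendritic cell markers to 4.58 and 2.70 RPKM, against 1.36 and 0.976 RPKM. Their part in these rises was not tested.

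Afg3l2 and Smc5 fell in both knockouts at both labels. Afg3l2, a subunit of a mitochondrial protease, had 102 and 112 CPM in early Bcl11b KO libraries, against 316 and 292 CPM in WT libraries (log2 fold change -1.50 ± 0.17, adjusted p = 4.34e-04). It had 157 and 139 CPM in early Gata3 KO libraries, against 367 and 353 CPM in WT libraries (log2 fold change -1.28 ± 0.16, adjusted p = 2.07e-04). Its late falls were -0.82 ± 0.17 in Bcl11b KO (adjusted p = 0.0334, and 0.134 to 0.322 without any 1 late library) and -0.85 ± 0.16 in Gata3 KO (adjusted p = 0.00683). Smc5, a subunit of a DNA repair complex, had log2 fold changes of -0.76 ± 0.17, -0.84 ± 0.17, -0.90 ± 0.19 and -0.68 ± 0.19 in early Bcl11b, late Bcl11b, early Gata3 and late Gata3 KO cells. Its early Bcl11b difference turned to 0.34 on the log2(RPKM + 1) scale, and its late calls were lost without single libraries (adjusted p of 0.200 to 0.324 for Bcl11b, and, for Gata3, 0.175 without late KO library 2, 0.236 without late WT library 1, 0.0702 without early KO library 1 and 0.0725 without early KO library 2). Amz2, a metalloprotease with the seventh highest Bcl11b enrichment (11.65-fold), had 48.3 and 42.1 CPM in early Bcl11b KO libraries, against 148 and 134 CPM in WT libraries (log2 fold change -1.64 ± 0.24, adjusted p = 0.00139), and 22.3 and 23.5 CPM in early Gata3 KO libraries, against 59.5 and 48.1 CPM in WT libraries (log2 fold change -1.23 ± 0.16, adjusted p = 3.03e-04).

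Peak strength and RNA response were set side by side. Across the tested genes, the Bcl11b enrichment and the log2 fold change had a Spearman's rho of 0.01 in both Bcl11b comparisons (n = 1008), and the GATA3 enrichment of -0.07 in early Gata3 KO and -0.03 in late Gata3 KO cells (n = 1006). These are descriptions over genes of 1 set of libraries. In early Gata3 KO cells, 37 genes rose and 60 fell (40.6%) where the GATA3 enrichment was 3.32 to 35-fold, the highest of 4 like-sized groups, and 44 rose and 44 fell (33.6%) in the lowest. Over all genes tested in early Gata3 KO cells, 30.7% were called, 14% rising and 16.8% falling. In early Bcl11b KO cells 24.2% of genes were called in the highest such group of Bcl11b enrichment and 25.1% in the lowest, where 21% of all genes were called.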

How the data were processed

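The sources give 16 RNA-seq libraries (RNeasy, NuGEN Ovation V2 amplification) and 3 ChIP-seq libraries (Diagenode iDeal kit). Per the submitters' processing notes, MACS 1.4.2, Novoalign, Bowtie, CASAVA 2.18 and TopHat2 2.0.13 were used with the mm10 build, with no roles stated. The sources used here do not name the counting tool, its use of strand or its handling of multi-mapped reads. The authors deposited, per RefSeq transcript, whole read counts and RPKM. Per the file headers, the authors' peak lists hold read counts, fold enrichment (a ratio to the caller's local background), a score (the caller's p on a negative log scale) and an FDR in percent. Peaks were called per library.

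Of 29257 transcripts, the one with the most reads stood for each of 22878 gene symbols. Genes with at least 1 RPKM in at least 2 of an experiment's 8 libraries were tested with edgeR 4.0.16 (TMM scaling, quasi-likelihood test, all 4 groups in 1 fit per experiment, R 4.3.3), and p-values were Benjamini-Hochberg adjusted over every gene of the fit (threshold 0.05). The experiments were fitted separately. CPM are counts scaled to the TMM-adjusted library size. The edgeR step was tested on simulated counts with 200 changed genes. Peaks and motifs were handled in Python 3.11.15. Alternatives were DESeq2 1.42.0, limma 3.58.1 on log2 of the deposited RPKM plus 1 or 0.1, no filter, the longest transcript, counts less the receptor background, a replicate block, leaving out each library, and other peak criteria. Motifs were searched on both strands in RefSeq promoter windows of 250 bases before to 50 after the start. With 2 libraries a group, precision is set by the spread between libraries (biological coefficient of variation 0.281 in the Bcl11b and 0.125 in the Gata3 experiment).

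The regions, gene lists and tests were chosen with earlier results of these data known. Genes named are the 10 highest by each enrichment, the up to 8 largest called rises and falls per comparison among genes of at least 5 RPKM, genes called in at least 3 comparisons, list members and the genes nearest the distance limit, from which the ones described were picked after their values were seen. Others, such as Malt1, Themis, Pgk1, Hif1a and Slc2a1, were also named after their values were seen.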

Additional observations from a re-analysis of the deposited data

Results flagged for a closer look

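The effect of a knockout differed between the labels for the genes below, by edgeR's test of the difference itself (adjusted p under 0.05 over all genes tested). Each value is the late log2 fold change minus the early one, with its standard error. In the Bcl11b experiment the late value was higher for Ctla4 (1.32 ± 0.24), Gbe1 (3.55 ± 0.51), Itih5 (2.03 ± 0.30), Me2 (1.15 ± 0.26), Mxi1 (1.64 ± 0.33), Ppp1r3b (4.06 ± 0.46) and Slc2a3 (4.29 ± 0.38). It was lower for Gzma (-1.57 ± 0.27), Il13 (-3.74 ± 0.36) and Phlda1 (-4.09 ± 0.53). The early WT libraries of this experiment are those with the high receptor background, and its part in these differences was not tested gene by gene. Without single late libraries the adjusted p was 0.0708 to 0.102 for Ctla4 (any of the 4), 0.0648 to 0.166 for Mxi1 (any of the 4), 0.0637 to 0.0961 for Gzma (late KO library 1 or 2, or late WT library 2), 0.0503 and 0.0576 for Gbe1 (late KO library 1 or late WT library 1) and 0.0516 to 0.0616 for Itih5 (late KO library 2, or late WT library 1 or 2). It was 0.0641 to 0.195 for Me2 (early KO library 2 or any late library).

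In the Gata3 experiment the late value was higher for Aff4 (0.75 ± 0.20), Batf (1.39 ± 0.26), Ccr1 (5.92 ± 0.34), Cd28 (1.74 ± 0.19), Ctla4 (2.36 ± 0.20), Cyp11a1 (3.41 ± 0.40), Cysltr1 (3.95 ± 0.28), Dusp16 (3.04 ± 0.31), Hif1a (1.15 ± 0.19), Id2 (0.79 ± 0.19), Il13 (1.82 ± 0.34), Il1r2 (4.07 ± 0.47), Il2ra (1.45 ± 0.15), Il4 (5.56 ± 0.40), Lama5 (2.86 ± 0.28), Malt1 (1.87 ± 0.18), Mmp10 (6.76 ± 1.16), Mxi1 (2.66 ± 0.23) and Phlda1 (2.49 ± 0.19). It was lower for Art2b (-2.21 ± 0.30), Ccne1 (-1.13 ± 0.30), Gpr18 (-1.23 ± 0.21), Gzma (-2.53 ± 0.47), Havcr2 (-2.00 ± 0.33) and Lgals3 (-2.56 ± 0.26). The Gata3 WT libraries of the 2 labels were nearly alike, so these differences rest on the KO libraries. The fit counted these WT libraries as separate, so the adjusted p may be too small if they share a culture. The fitted value of Mmp10 depends on 0 reads in the early KO libraries and gives no size. Without single libraries the adjusted p was 0.0561 to 0.132 for Aff4 (any but late KO library 2), 0.0752 to 0.116 for Ccne1 (early KO library 1 or 2, early WT library 1, late KO library 1 or late WT library 2) and 0.0669 to 0.115 for Id2 (early KO library 2, early WT library 1, late KO library 1, or late WT library 1 or 2).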

How the results depend on the processing

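The results described gene by gene include 172 calls, of which 102 kept their call and direction in all settings tried and 54 were lost without 1 library. The counts below are of genes at shared promoter peaks. Leaving out each library in turn gave 178 to 253 calls in early Bcl11b KO (241 with all), 1 to 52 in late Bcl11b KO (25), 229 to 382 in early Gata3 KO (366), 97 to 176 in late Gata3 KO (173), and stage differences for 5 to 75 genes (36) in the Bcl11b and 85 to 171 (139) in the Gata3 experiment. With an FDR of at most 1% in both lists 696 of the 1150 regions were left, with 139, 15, 226 and 115 calls in the same 4 comparisons and 22 and 89 stage differences. The calls were 23.0%, 2.48%, 37.6% and 19.1% of the genes tested, against 21%, 2.22%, 30.7% and 14% of all genes. The stage differences were 3.64% and 14.8%, against 3.24% and 12.2% of all genes. With limma, log2(RPKM + 0.1) and log2(RPKM + 1) gave 694 and 690 calls in early Bcl11b KO (68.8% and 68.5%, against 64.0% and 63.4% of all genes). They gave 592 and 623 stage differences in that experiment (58.7% and 61.8%, against 53.8% and 55.7% of all genes). In late Bcl11b KO log2(RPKM + 0.1) gave 6 calls (0.595%, against 0.819% of all genes). A fit of only the 4 libraries compared gave 113 in early Bcl11b KO (11.2%, against 9.35% of all genes). It gave 171 in late Bcl11b KO (16.96%, against 14.7% of all genes). DESeq2 gave 73 in late Bcl11b KO (7.28%, against 5.52% of all genes) and 98 Bcl11b stage differences (9.72%, against 8.30%). Without the filter on low values there were 13 calls in late Bcl11b KO (1.17%, against 0.670% of all genes). There were then 224 Gata3 stage differences (20.5%, against 12.8% of all genes). Background-subtracted counts gave 22 Bcl11b stage differences. The replicate block gave 306 calls in late Gata3 KO (30.4%, against 23.7% of all genes) and 270 Gata3 stage differences (26.8%, against 22.5%). Same-numbered libraries deviated together with r of -0.07 to 0.28 in the Bcl11b and 0.14 to 0.55 in the Gata3 experiment, over 2 numbers only, and the labels name no shared source for a number. In the Gata3 experiment all 6 pairs of groups were above 0.1. With the block the late Gata3 fall of Il4 passed (-0.78, adjusted p = 9.42e-04). In windows whose peak lies within 250 bp of the start, the longer GATA motif occurred in 16.7%, CCGGAAG in 26.7% and TATAAA in 5.86%.

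Under limma with log2(RPKM + 0.1) and log2(RPKM + 1), early Bcl11b KO differences turned positive for Bcl11b (0.060 and 0.047), Ccna2 (0.11 and 0.11), Cdt1 (0.091 and 0.081), Hif1a (0.35 and 0.34), Incenp (0.17 and 0.16), Smc5 (0.38 and 0.34) and Themis (0.32 and 0.30). The Bcl11b stage difference turned negative for Ctla4 (-0.026 and -0.027) and Me2 (-0.19 and -0.18). These RPKM are scaled to a total of which gene reads make 16.9% and 20.7% in the early Bcl11b WT libraries, against 40.7% or more in the others. The cause of the other changes was not tested. Depth, 2 libraries a group and 1 library per antibody limit all results.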
